A study of Homo sapiens with 60 samples.

Results

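The data compared SW1783 cells, a human astrocytoma line, after 24 h with 500 µg/mL of the ethanol extract of Palmul-tang, a herbal formula, against the same cells after 24 h with 20 µg/mL of it, in 3 libraries per dose. These 6 libraries were taken by their dose labels out of 60 in all, and 3 more libraries at 100 µg/mL served to ask whether a difference grew with dose. The recipe is built from a pair of smaller formulas, Sagunja-tang plus Samul-tang, and is itself the base of Sibjeondaebo-tang, in which Cinnamomi Cortex and Astragali Radix are further herbs. Each of these 3 formulas was also given for 24 h as an ethanol extract at 500, 100 and 20 µg/mL, with 3 libraries per dose. The vehicle libraries, 3 in number, received DMSO, stated as 0.1% in the sample labels and as 2% in the series text. All 9 Palmul-tang libraries carry one sample code, which the vehicle libraries do not share, so the vehicle and that code cannot be told apart and vehicle levels are given for orientation only. Nothing in the labels says whether replicates were separate cultures. Every p-value sets a difference against the spread between libraries within groups, which may therefore be technical. In the main fit that spread was estimated over 57 libraries, those of other extracts among them.

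Bone morphogenetic proteins (BMPs) act through receptor kinases that phosphorylate SMAD1, SMAD5 and SMAD9, and the activated SMADs switch on a short list of target genes, among them the ID genes. ID proteins lack a DNA-binding region and block other helix-loop-helix factors, and in glial and glioma cells they are known for holding back differentiation. NRF2 is a transcription factor that induces genes of haem breakdown, iron storage, glutathione and NADPH supply when cells meet electrophiles. The integrated stress response acts through ATF4 on amino acid genes and on the secreted factor GDF15.

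The 9 Palmul-tang libraries held 19793383 to 33257862 counts each, and mitochondrially encoded genes took 4.69% to 5.50% of them. Of 15 astrocyte and glial markers, 8 stayed under 1 CPM, the count scaled to the library's total, in all 9 libraries, GFAP and S100B among them, while VIM reached 3849 to 4475 CPM and CD44 2514 to 2697 CPM. These marker levels and the marker sums given later are scaled to the raw library total, and all other CPM to the TMM-scaled one. The line is therefore named here by its label and not by its markers. Low-dose replicate 2 lay nearest to the high dose of the 3 low-dose libraries in 425 of the 651 genes called below, 65.3%, against 118 for replicate 1 and 108 for replicate 3. The part of that library in the results was not tested beyond leaving it out, which left 568 genes called.

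At the high dose 651 of 17676 genes tested differed from the low dose, 3.68% of them, with 339 higher (1.92%) and 312 lower (1.77%). A gene is called here when its Benjamini-Hochberg adjusted p from edgeR's quasi-likelihood test lies below 0.05, with no minimum fold. Most differences were small, since the median fold of the called genes was 1.3, 502 of them lay under 1.5-fold, and 24 rose and 23 fell by at least 2-fold. In all 651 the 3 high-dose libraries lay wholly above or below the 3 low-dose ones, which held for 15% of all tested genes in the higher direction and 15.1% in the lower. The count changed with the libraries in the fit, and each fit was filtered, scaled and given its spread anew. Without low-dose replicates 1 and 2 of Astragali Radix, libraries of another extract, 2169 genes were called. The 9 Palmul-tang libraries alone gave 2303. For Palmul-tang the count was 401 without low-dose replicate 1, 388 without low-dose replicate 3 and 429 without high-dose replicate 3. Each library's log2 deviation from a common mean was rank-correlated with transcript length and with GC content. For length this gave -0.495 in Astragali Radix low-dose replicate 1, against -0.061 to 0.108 in the Palmul-tang libraries. For GC content it gave 0.686 in replicate 2, against -0.113 to 0.075. Mitochondrially encoded genes took 1.11% of the counts of that replicate 2. The part of these departures in the counts of calls was not tested.

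Of 12 tested members of a list of ID genes and BMP/SMAD1/5 targets, 9 fell at the high dose and none rose, with a median log2 difference of -0.82 against 0.00 over all genes tested. Over all genes tested 1.77% were called lower. ID2, ID3 and ATOH8, like GDF15 and ATP2A3 below, were markers given for this comparison because they lead it. The gene lists were also chosen with earlier results of these data known, so counts of their members are descriptions only. The members that fell were ID3, ID2, ID4, ATOH8, SMAD6, ID1, SMAD9, BAMBI and SMAD7.

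ID3 (chromosome 1, 23557918 to 23559794, GRCh38) had 53.5, 56 and 50.3 CPM at the high dose, against 184, 128 and 166 CPM at the low dose. The high-dose libraries lay close together and far below the low-dose ones, of which replicate 2 was the lowest. The log2 difference was -1.58 ± 0.10 (standard error, adjusted p 2.18e-15, edgeR), a 2.99-fold fall. ID2 (chromosome 2, 8678845 to 8684453) had 6.49, 6.58 and 6.46 CPM at the high dose, against 21, 16.2 and 20.6 CPM at the low dose. Its log2 difference was -1.57 ± 0.12 (adjusted p 1.37e-13, edgeR), close in size to that of ID3.
ID1 fell less, with 123, 114 and 108 CPM at the high dose against 249, 194 and 239 CPM at the low dose and a log2 difference of -0.99 ± 0.15. ID4, at a low level, had 1.15, 1.06 and 0.827 CPM at the high dose against 2.51, 2.41 and 3.38 CPM at the low dose, and differed by -1.44 ± 0.18 on the log2 scale (adjusted p 1.65e-07, edgeR). In each of the 4 ID genes the 2 doses did not overlap, as in all 651 called genes and, in the lower direction, in 15.1% of all genes tested.

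ATOH8, a helix-loop-helix factor known as a BMP target (chromosome 2, 85751344 to 85788066), had 8.12, 7.51 and 7.13 CPM at the high dose, against 20.3, 15.4 and 21 CPM at the low dose. The difference was -1.32 ± 0.14 on the log2 scale (adjusted p 4.56e-09, edgeR). SMAD6, an inhibitory SMAD that BMP signalling induces against itself, had 7.36, 6.61 and 6.73 CPM at the high dose against 13.9, 12.9 and 16.5 CPM at the low dose, a log2 difference of -1.06 ± 0.16. SMAD9, a receptor-activated SMAD and itself a BMP target, differed by -0.66 ± 0.16 (adjusted p 0.0111, edgeR), a call lost without low-dose replicate 1 or 3 or high-dose replicate 1. The smaller falls of BAMBI, a pseudoreceptor, at -0.30 ± 0.08 and of SMAD7, the other inhibitory SMAD, at -0.27 ± 0.08 each lost their call in 5 and 4 of the 6 fits that left out 1 Palmul-tang library. The remaining members gave log2 differences of -0.09 ± 0.10 for HEY1, 0.06 ± 0.12 for MSX1 and -0.43 ± 0.45 for MSX2, and MSX2 stayed under 1 CPM in every Palmul-tang library.

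**Figure D1:**
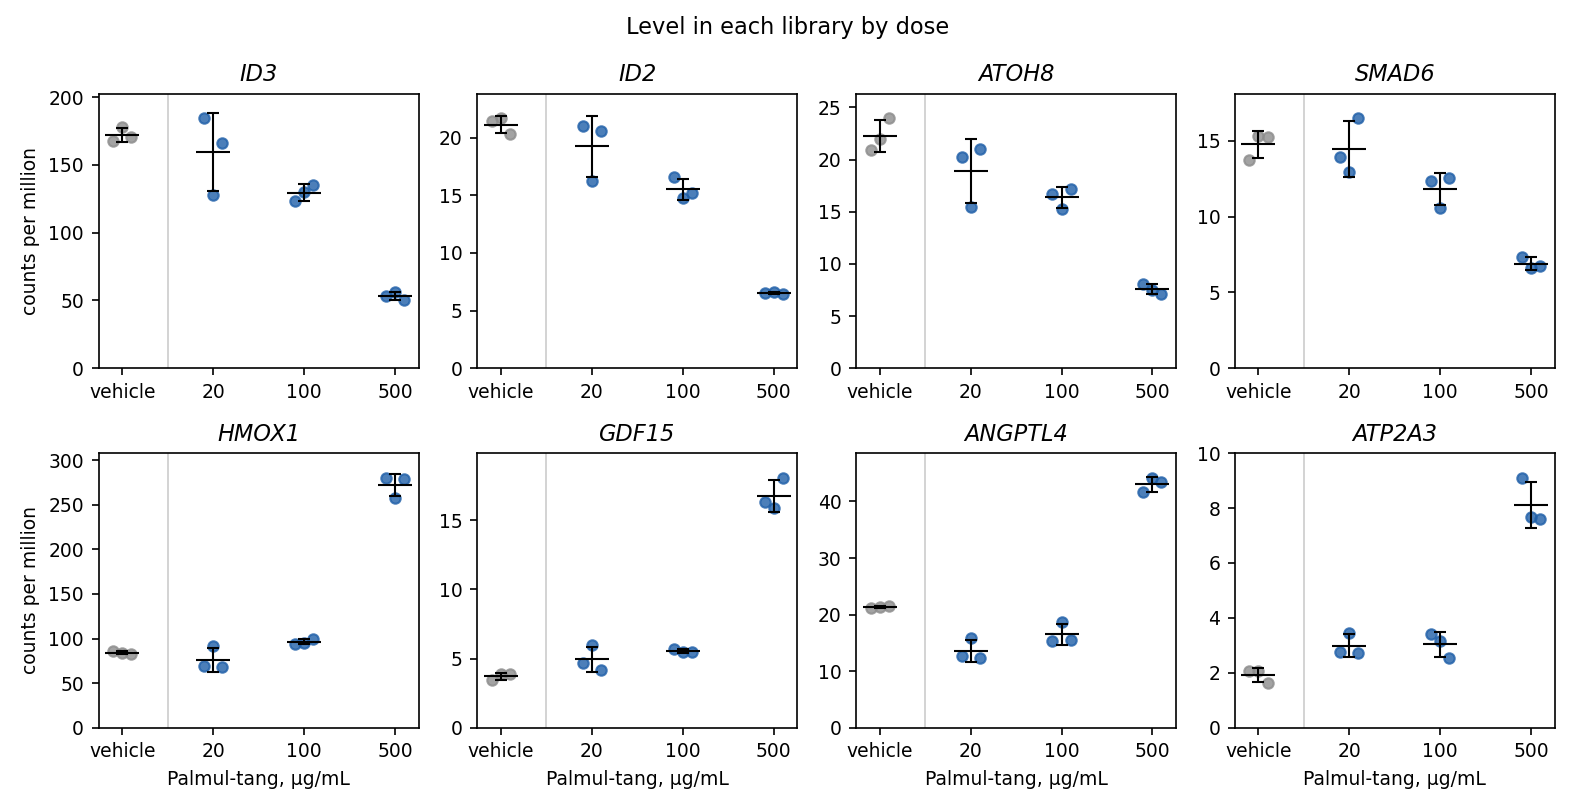
Level in CPM (vertical axes, from 0) of 8 genes in every library of the vehicle and of Palmul-tang at 20, 100 and 500 µg/mL; points are libraries and bars the mean ± SD of 3. The 3 libraries at 500 µg/mL lie apart from all others, low for ID3, ID2, ATOH8 and SMAD6 and high for HMOX1, GDF15, ANGPTL4 and ATP2A3.

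Promoter sequence is shown for the 3 members with the largest falls among the markers and for SMAD6, as the stretch just upstream of the start site in RefSeq (GRCh38.p14), 5′ to 3′ on the gene's strand. The palindrome GTCTAGAC, to which SMAD proteins bind, and the GC-rich element GGCGCC, described for SMAD1 and SMAD5, were searched on both strands in the 250 bases before the start, and matches stand in capitals. ID2, ID3 and ATOH8 held neither in this window. SMAD6 held GTCTAGAC beginning 12 bases before its start.
ID2 (chr2:8681936-8682055, +): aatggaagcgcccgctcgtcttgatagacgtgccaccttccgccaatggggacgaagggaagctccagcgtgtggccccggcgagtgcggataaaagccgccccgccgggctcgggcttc
ID3 (chr1:23559502-23559621, -): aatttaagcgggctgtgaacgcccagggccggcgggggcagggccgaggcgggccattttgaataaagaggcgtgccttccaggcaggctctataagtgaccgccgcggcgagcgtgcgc
ATOH8 (chr2:85753871-85753990, +): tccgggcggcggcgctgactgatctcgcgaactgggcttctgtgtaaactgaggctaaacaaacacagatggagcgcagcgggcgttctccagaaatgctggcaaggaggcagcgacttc
SMAD6 (chr15:66702116-66702235, +): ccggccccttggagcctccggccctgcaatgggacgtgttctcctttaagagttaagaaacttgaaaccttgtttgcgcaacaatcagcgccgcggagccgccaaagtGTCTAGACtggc
Of 11 list members with a promoter entry, 1 held GTCTAGAC and 1, BAMBI, held GGCGCC, against 0.182% and 16.4% of all 35116 promoters of that length. A member counted when any of its promoter entries matched, while these shares are over entries, so they are not alike. A match is a description of the letters and not a bound site.

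Of 30 tested ligands, receptors, SMADs and antagonists of the pathway 3 fell and 1 rose, with a median log2 difference of -0.07. BMP4, a ligand, averaged 8.04 ± 0.439 CPM at the high dose and 10.8 ± 1.1 CPM at the low dose (SD, n = 3 each), a log2 difference of -0.42 ± 0.09. CRIM1, a transmembrane protein that binds BMPs, differed by -0.39 ± 0.05. GREM1, a secreted BMP antagonist, was the member called higher, with 22.6 ± 1.13 CPM at the high dose and 18.3 ± 0.622 CPM at the low dose, though 4 of the 6 fits without 1 Palmul-tang library did not call it.

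The largest fall among genes of at least 5 CPM was not in the BMP list. SAMD11, which codes for a SAM-domain protein of the nucleus, had 25.1, 24 and 23.1 CPM at the high dose, against 87.3, 57.1 and 85.5 CPM at the low dose, a 3.18-fold fall with a log2 difference of -1.67 ± 0.19 (adjusted p 8.02e-09, edgeR). LINC02593, a long non-coding RNA, lies next to it on chromosome 1 (916865 to 921016, against 923928 to 944581 for SAMD11, GRCh38) and had 3.57, 4.85 and 4.13 CPM at the high dose against 9.81, 8.13 and 12.6 CPM at the low dose. Whether the counting used strand is not given in the sources used here. Other large falls were those of ANKRD1, a YAP/TAZ target, at 2.10-fold, RASA4B, a Ras GTPase-activating protein whose reads may be shared with near-identical copies, at 1.93-fold, CYP24A1, the vitamin D hydroxylase, at 1.78-fold, and the keratin KRT7 at 1.76-fold.

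Of 31 tested NRF2 targets 22 rose at the high dose and none fell, all 31 log2 differences were above 0, and their median was 0.45. HMOX1, the enzyme that breaks down haem, had 279.9, 258 and 278 CPM at the high dose, against 69.1, 91.5 and 68.1 CPM at the low dose. The doses did not overlap, as in every called gene. The log2 difference of 1.83 ± 0.09 (adjusted p 2.60e-19, edgeR) made HMOX1 the largest rise among genes of at least 5 CPM. The ferritin chains that store the freed iron rose together: FTH1 averaged 2365 ± 82.8 CPM at the high dose and 1247 ± 87.5 CPM at the low dose, and FTL 2354 ± 68 CPM at the high dose and 1245 ± 81.4 CPM at the low dose (SD, n = 3 each). Both have many processed pseudogenes that can share reads.
NQO1, a quinone reductase, had 280.1, 275 and 275 CPM at the high dose, against 147, 171 and 144 CPM at the low dose, a log2 difference of 0.85 ± 0.06. AKR1C1, an aldo-keto reductase with close paralogs, rose 2.17-fold, to 49.6 ± 2.76 CPM at the high dose against 22.9 ± 0.737 CPM at the low dose. For glutathione, SLC7A11, the cystine importer, rose 1.86-fold, and the 2 subunits of glutamate-cysteine ligase gave log2 differences of 0.45 ± 0.07 for GCLC and 0.55 ± 0.09 for GCLM. For NADPH, PGD gave 0.42 ± 0.05 and ME1 0.42 ± 0.10. In the thioredoxin system TXNRD1 gave 0.47 ± 0.06 and SRXN1, which repairs oxidised peroxiredoxins, 0.62 ± 0.05.
GCLM is shown as an example of the antioxidant response element core TGACNNNGC, which begins 34 bases before its start and reads here from the other strand, in capitals.
GCLM (chr1:93909431-93909490, -): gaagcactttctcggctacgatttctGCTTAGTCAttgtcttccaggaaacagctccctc
Of 24 NRF2 list members with a promoter entry 8 held this core within 250 bases of the start, against 10.9% of all promoters. The first is a count of genes with a match in any of their promoter entries and the second a share of entries. They are therefore not alike, and an excess was not tested. Of the members with the core, CBR1, GPX2 and KEAP1 were not called.

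Genes of the integrated stress response rose as well. Of 15 tested members of a list around the marker GDF15, 9 rose and none fell, with a median of 0.43. Over all genes tested 1.92% were called higher. GDF15, a secreted stress factor of the TGF-beta superfamily (chromosome 19, 18374731 to 18389176), had 16.3, 15.9 and 18 CPM at the high dose, against 4.67, 5.97 and 4.21 CPM at the low dose. This was a 3.37-fold rise with a log2 difference of 1.75 ± 0.13 (adjusted p 1.37e-13, edgeR). TRIB3, a pseudokinase induced by ATF4, had 40.3, 39.8 and 43.4 CPM at the high dose, against 20.2, 23.6 and 22.5 CPM at the low dose, and DDIT3, the factor CHOP, had 41.3, 40.9 and 39.4 CPM at the high dose against 26.9, 26.5 and 23.7 CPM at the low dose. ATF4 itself differed by 0.30 ± 0.08 (adjusted p 0.0263, edgeR) and SESN2, a sestrin, by 0.43 ± 0.08. Of 19 genes of amino acid synthesis and transport 8 rose and none fell. They included ASNS, asparagine synthetase, at 0.64 ± 0.05, PSAT1, of serine synthesis, at 0.50 ± 0.05, and SLC3A2, the heavy chain of amino acid exchangers, at 0.62 ± 0.08. In the separate list of the endoplasmic reticulum unfolded protein response 2 of 20 rose, HERPUD1 at 0.34 ± 0.07 and DNAJB9 at 0.38 ± 0.10, and its median was 0.05. The call of DNAJB9 was lost without low-dose replicate 1 or high-dose replicate 2. None of 20 heat shock genes was called by edgeR, with a median of -0.05.

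ATP2A3, which codes for the calcium pump SERCA3 of the endoplasmic reticulum (chromosome 17, 3923870 to 3964464), had 9.09, 7.67 and 7.6 CPM at the high dose, against 2.78, 3.46 and 2.72 CPM at the low dose. The groups stood wide apart, with a 2.72-fold rise and a log2 difference of 1.44 ± 0.15 (adjusted p 1.02e-09, edgeR). Of 19 tested members of a list of calcium pumps and store channels it was the one called higher, while 12 of the 19 had all 3 high-dose libraries above the low-dose ones, a state that 15% of all tested genes shared. ATP2A2, which codes for the widely expressed pump SERCA2, had 397, 387 and 393 CPM at the high dose against 393, 400.2 and 396 CPM at the low dose, a log2 difference of -0.02 ± 0.06. STIM2, a sensor of stored calcium, was the one member called lower, at -0.19 ± 0.06, and 5 of the 6 fits without 1 Palmul-tang library did not call it. The inositol trisphosphate receptors gave 0.22 ± 0.07 for ITPR1, -0.04 ± 0.12 for ITPR2 and 0.24 ± 0.12 for ITPR3, none of them called by edgeR over the 57 libraries. ITPR1, ITPR3, ORAI3, ATP2B1, ATP2B4, CALR and STIM1 were called higher without the 2 Astragali Radix libraries, all but STIM1 of them also with the Palmul-tang libraries alone, ITPR1 by DESeq2 and ORAI3 without low-dose replicate 2.

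Of 19 genes of lipid droplets, fatty acid oxidation and PPAR targets 4 rose and 1 fell. ANGPTL4, a secreted inhibitor of lipoprotein lipase, had 41.6, 44.1 and 43.5 CPM at the high dose, against 12.6, 15.8 and 12.3 CPM at the low dose, a log2 difference of 1.66 ± 0.14 (adjusted p 1.60e-12, edgeR). PLIN2, which coats lipid droplets, had 118, 120.2 and 111 CPM at the high dose, against 53.7, 60.8 and 50.5 CPM at the low dose, and CPT1A, the carnitine transferase of fatty acid uptake into mitochondria, differed by 0.49 ± 0.08. TXNIP, a thioredoxin-binding protein, was the member that fell, at -0.64 ± 0.12. Of 31 lysosomal genes 9 rose and none fell, with a median of 0.18. The autophagy receptor SQSTM1, also an NRF2 target, rose 1.93-fold, and ATP6V1B2, a subunit of the lysosomal proton pump, and GPNMB, a lysosomal glycoprotein, differed by 0.35 ± 0.05 and by 0.45 ± 0.07. Of 9 targets of the aryl hydrocarbon receptor 5 rose, among them CYP1B1, an oxidase of xenobiotics, with 176, 167 and 177 CPM at the high dose against 133, 145 and 139 CPM at the low dose. The others called were NQO1, SLC7A5, IL1B and ALDH3A1. NQO1 is also counted among the NRF2 targets, SLC7A5 among the amino acid genes and IL1B among the NF-kB genes, and ALDH3A1 lay under 1 CPM. AHRR, the repressor of the receptor, differed by -0.003. THBD, the thrombin receptor thrombomodulin, rose 2.23-fold and FYB1, an adapter protein of blood cells, 1.99-fold.

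Genes of mitosis were lower at the high dose by small amounts. Of 30 tested members of a G2/M list 13 fell and none rose, all 30 log2 differences were below 0, and the median was -0.23. AURKB, a kinase of chromosome segregation, had 32, 32.9 and 32.8 CPM at the high dose, against 48, 40.5 and 44.4 CPM at the low dose, a log2 difference of -0.44 ± 0.08. TPX2, a spindle assembly factor, gave -0.29 ± 0.06, KIF23, a cytokinesis motor, -0.27 ± 0.06, and KIF20A, another, -0.40 ± 0.09. Over the alternatives the number of falling members ran between 4, without low-dose replicate 1 or high-dose replicate 2, and 29, without the 2 Astragali Radix libraries. It was 5 without high-dose replicate 3 and 6 without low-dose replicate 3. Of 27 genes of DNA replication 1 fell, RRM2 of nucleotide supply, at -0.33 ± 0.08, with a median of -0.12. Fewer cells in G2/M and less of these RNAs per cell cannot be told apart in bulk libraries. None of 32 cytosolic ribosomal protein genes and none of 13 mitochondrially encoded genes was called by edgeR, with medians of 0.00 and -0.04.

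Of 23 YAP/TAZ targets 5 fell and none rose, with a median of -0.19. ANKRD1 had 4.98, 5.26 and 5.28 CPM at the high dose, against 11.3, 9.59 and 11.8 CPM at the low dose, and CCN2, a matricellular growth factor, had 77.2, 93.6 and 98.4 CPM at the high dose against 133, 127 and 147 CPM at the low dose. Markers of other cell types moved in places. Of 5 tested epithelial markers KRT18 and KRT8 fell, at -0.71 ± 0.11 and -0.42 ± 0.10, the call of KRT8 being lost without high-dose replicate 2 or low-dose replicate 3. The summed level of the 8 listed ran between 117 and 120 CPM at the high dose, against 168 to 199 CPM at the low dose, while EPCAM and CDH1 stayed near 0. Of 4 tested microglia and leukocyte markers CD68 rose, at 0.35 ± 0.08, and PTPRC fell, at -0.55 ± 0.11; the call of CD68 was lost without replicate 3 of either dose. That list summed to 212 to 229 CPM at the high dose, against 168 to 180 CPM at the low dose, and AIF1 was at 0 in all 9 libraries. CD68 made up most of that sum, with a mean of 207 CPM at the high dose and 161 CPM at the low dose. The part of such markers in the other gene groups was not tested.

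**Figure D2:**
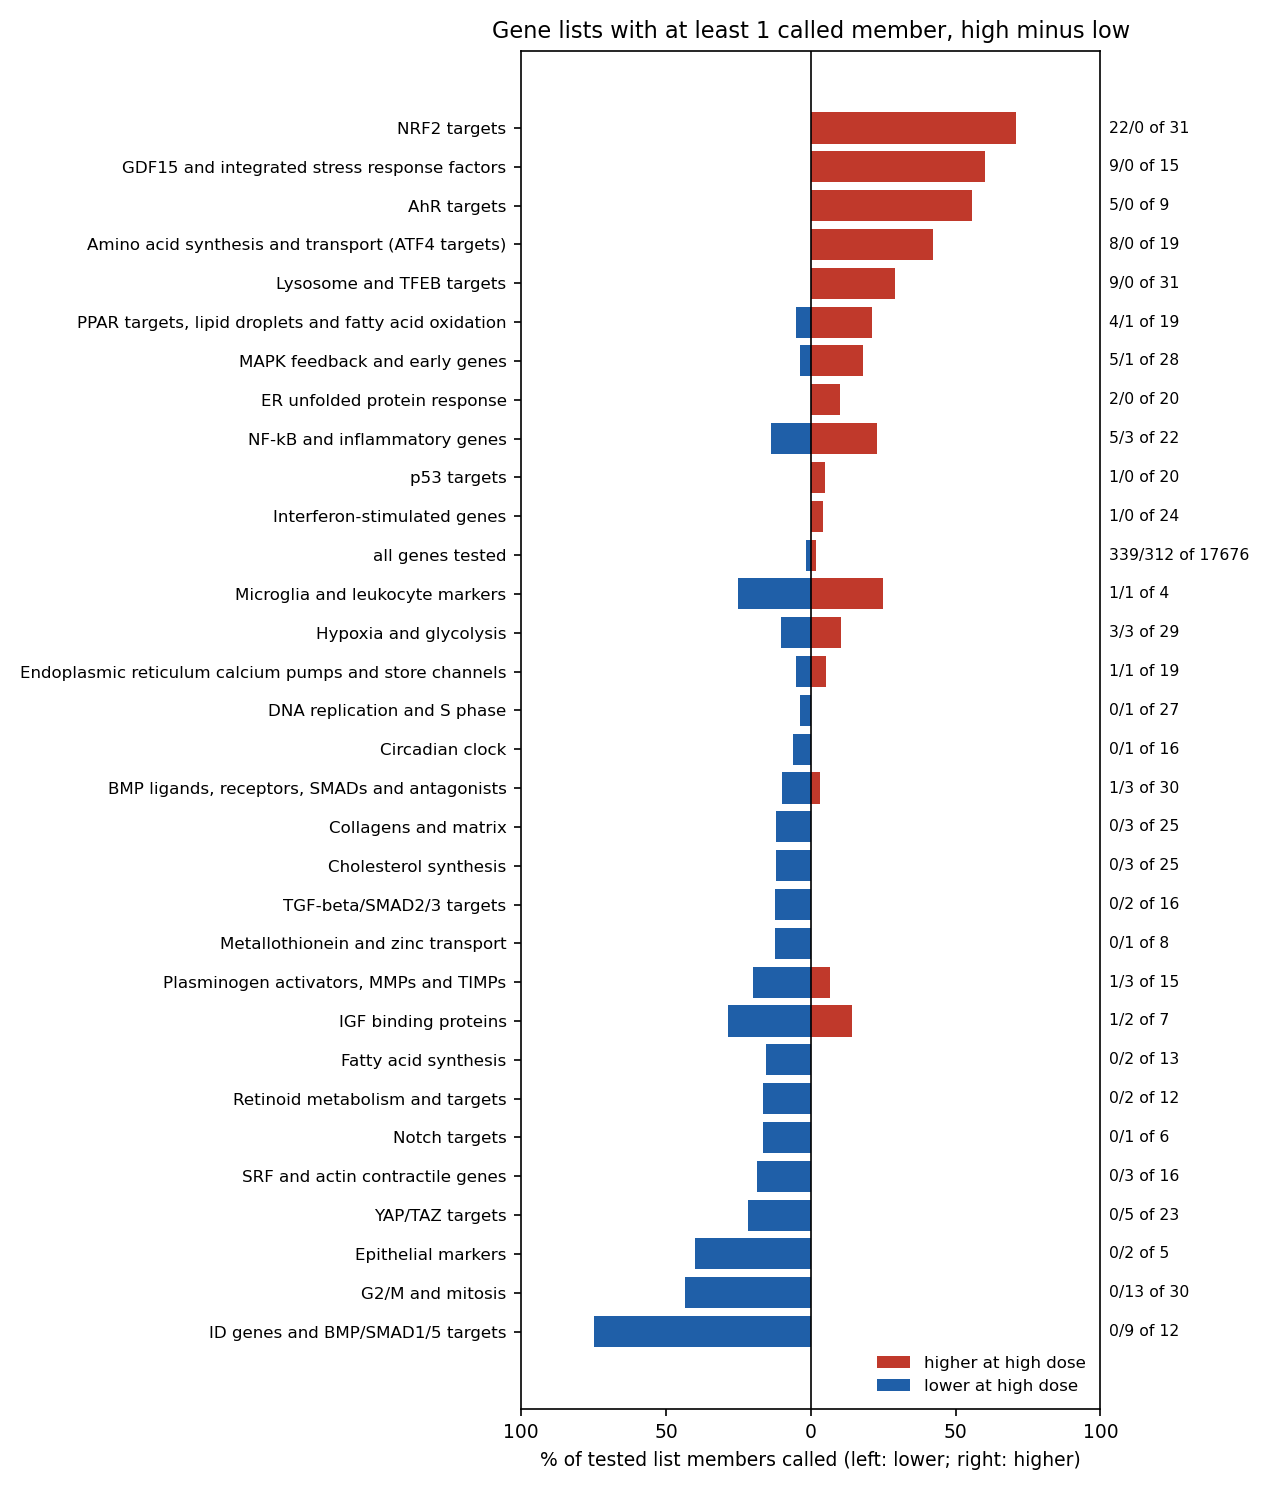
Share of tested members called lower (left, blue) or higher (right, red) at the high dose than at the low dose, for each gene list with any called member. Lists without a called member are left out. The numbers higher/lower of tested stand at the right, and the row of all genes tested gives the background. NRF2 targets, with 22 of 31 higher, and ID genes and BMP targets, with 9 of 12 lower, stand at the ends.

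Both dose steps are 5-fold. Between the medium and the low dose edgeR called 0 of 17676 genes, 0% of them, the smallest adjusted p was 0.516, and 348 genes had an unadjusted p below 0.05. DESeq2 called 2 and edgeR without a filter on low counts 67. Between the high and the medium dose 412 genes were called, 2.33% of those tested, with 224 higher (1.27%) and 188 lower (1.06%); the count was 262 without high-dose replicate 1 and 236 without medium-dose replicate 3. The 2 steps and the whole span share libraries, so their values stand side by side and are not independent. Of the 651 genes called over the whole span, the medium mean lay between the low and the high mean in 562, 86.3%, against 42.7% of all genes tested. A gene called for a wide gap between these means holds the medium mean inside it more often by that choice alone. The share over all genes is thus no like background, and a graded response was not tested by it. The genes that rose had reached a median of 16.7% of their log2 difference at the medium dose, and those that fell 16%.

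ID3 averaged 159 ± 29 CPM at the low dose, 129.7 ± 6.14 CPM at the medium dose and 53.3 ± 2.86 CPM at the high dose (SD, n = 3 each), with 172 ± 5.34 CPM in the vehicle libraries. Its first step was -0.30 ± 0.10 and its second -1.28 ± 0.10 on the log2 scale. ATOH8 averaged 18.9 ± 3.03 CPM at the low, 16.4 ± 0.981 CPM at the medium and 7.58 ± 0.499 CPM at the high dose, with steps of -0.21 ± 0.13 and -1.11 ± 0.15. In both genes the medium libraries lay within or just under the range of the low ones and well above the high ones. For HMOX1 the means were 76.2 ± 13.2 CPM at the low, 96.2 ± 2.82 CPM at the medium and 272 ± 12.4 CPM at the high dose, and the steps 0.34 ± 0.09 and 1.5 ± 0.09. GDF15 averaged 4.95 ± 0.914 CPM at the low, 5.53 ± 0.134 CPM at the medium and 16.7 ± 1.16 CPM at the high dose. ATP2A3 had a first step of 0.01 ± 0.16 and a second of 1.43 ± 0.15. LIF, a cytokine, had steps of 0.27 ± 0.07 and 0.28 ± 0.07, close to each other in size. IGFBP1, a binding protein of insulin-like growth factors, had 0.35 ± 0.09 and 0.57 ± 0.09, and ALDH3A1, an aldehyde dehydrogenase under 1 CPM, 1.19 ± 0.39 and 0.78 ± 0.32.

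**Figure D3:**
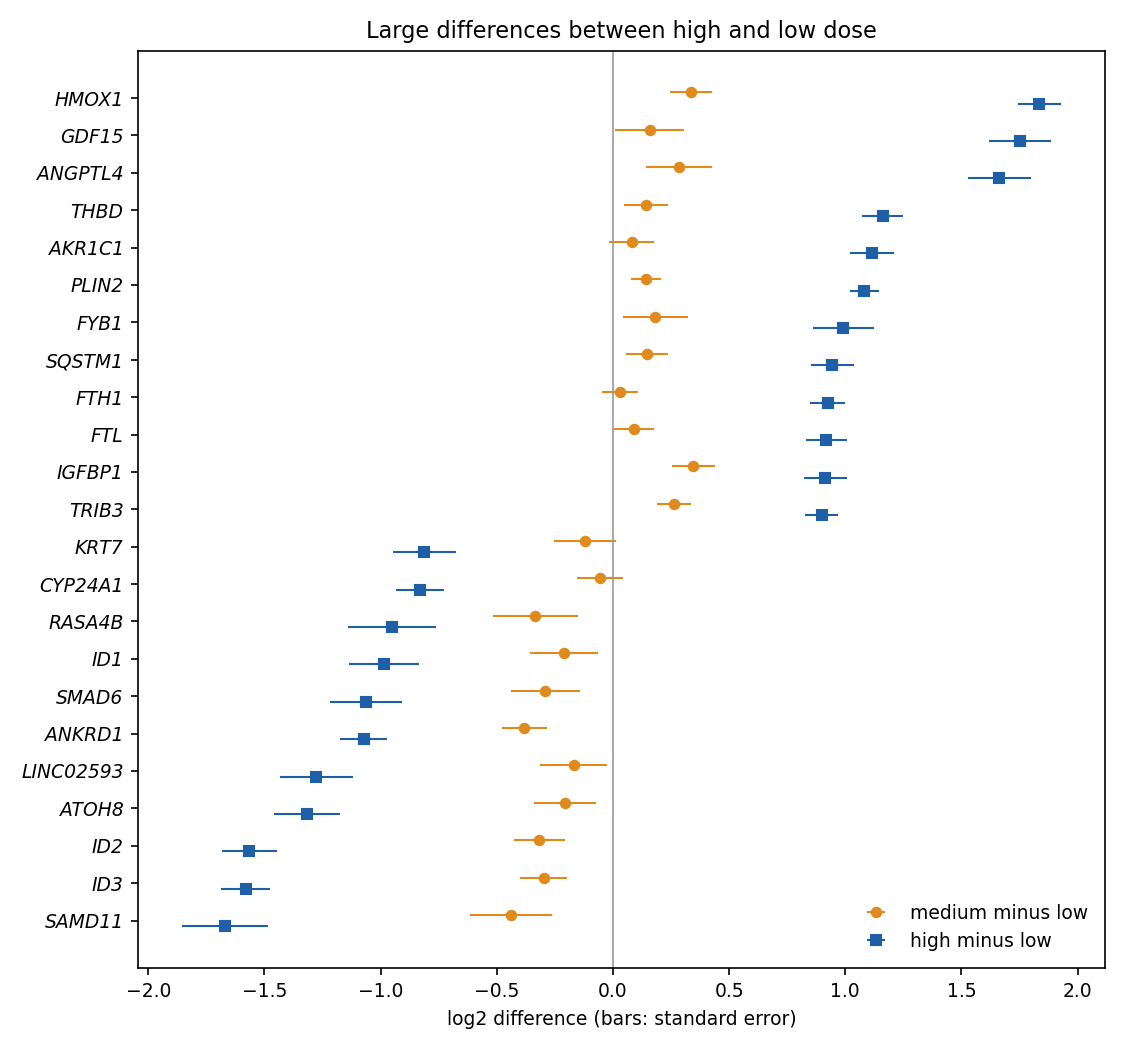
Log2 difference from the low dose (horizontal axis, bars are standard errors) at the high dose (blue squares) and the medium dose (orange circles) for the largest rises and falls named here among called genes of at least 5 CPM. The medium values lie between -0.44 for SAMD11 and 0.35 for IGFBP1, far inside the high ones.

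A direct test of whether the second step differed from the first, high plus low minus 2 times the medium on the log2 scale, called 19 genes, 0.107% of those tested, 15 of them bending upward (0.0849%) and 4 downward (0.0226%). The upward ones included HMOX1 at 1.16 ± 0.16 (adjusted p 5.18e-05, edgeR), PLIN2 at 0.80 ± 0.11, ASNS at 0.60 ± 0.09, FTH1 at 0.86 ± 0.13, AKR1C1 at 0.96 ± 0.17 and GDF15 at 1.44 ± 0.25; the last pair lost the call without medium replicate 3. ATP2A3 bent upward at 1.42 ± 0.28 (adjusted p 0.0126, edgeR), a call lost without medium replicate 2 or 3 or low replicate 2. ID3 bent downward at -0.99 ± 0.17 (adjusted p 0.00235, edgeR), lost without medium replicate 3, and ID2 at -0.93 ± 0.20 (adjusted p 0.0282, edgeR), lost in 7 of the 9 fits without 1 library. The matrix gene COL8A1 bent downward at -0.33 ± 0.07, and the call was lost in every one of those 9 fits. The count of 19 ran between 4, without medium replicate 3, and 18 when 1 library was left out. It was 11 without medium replicate 2, 9 without medium replicate 1 and 7 without low-dose replicate 2, and 202 without the 2 Astragali Radix libraries.

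The dose difference of Palmul-tang was then set against that of the formulas whose herbs it joins, which share no library with it. Sagunja-tang and Samul-tang carry another sample code than Palmul-tang, while Sibjeondaebo-tang carries the same one. What the code stands for is not given. A difference in this dose difference between Palmul-tang and either smaller formula, or their average, therefore cannot be told apart from one between codes in the same quantity. Against Sagunja-tang 42 genes differed in their high minus low difference, 0.238% of those tested, 12 higher (0.0679%) and 30 lower (0.17%). ID3 led them. In Sagunja-tang it had 167, 181 and 167 CPM at the high dose against 169, 161 and 158 CPM at the low dose, a log2 difference of 0.08 ± 0.10, and the difference between the formulas was -1.66 ± 0.14 (adjusted p 1.15e-10, edgeR). For ID2 the difference between the formulas was -1.56 ± 0.16 (adjusted p 9.80e-09, edgeR), for ATOH8 -1.29 ± 0.19 (adjusted p 9.08e-05) and for SAMD11 -1.71 ± 0.25 (adjusted p 8.72e-05). In all, 6 of the 12 ID and BMP target genes differed from Sagunja-tang, where the list's median was 0.00, although the call of ID1, at -0.89 ± 0.21 (adjusted p 0.0447, edgeR), was lost in 11 of the 12 fits without 1 library and that of SMAD6, at -0.98 ± 0.21 (adjusted p 0.0202, edgeR), in 7.
On the higher side stood LIF at 0.71 ± 0.10, ANGPTL4 at 1.12 ± 0.19, IGFBP1 at 0.70 ± 0.13 and NDRG1, a hypoxia-responsive gene, at 0.57 ± 0.10. The count was 26 without Sagunja-tang high-dose replicate 3 and 27 without Palmul-tang low-dose replicate 1.

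Against Samul-tang 22 genes differed, 0.124% of those tested, 9 higher (0.0509%) and 13 lower (0.0735%). There ID3 fell with dose too, by -0.86 ± 0.10 on the log2 scale, with 98, 90.1 and 98.6 CPM at the high dose against 176, 185 and 161 CPM at the low dose. The difference between the formulas was -0.72 ± 0.14, lower under Palmul-tang (adjusted p 0.0179, edgeR), and for ID2 -0.77 ± 0.16 (adjusted p 0.0253), calls lost in 7 and 10 of the 12 fits without 1 library. TRIB3 rose more under Palmul-tang than under Samul-tang, by 0.71 ± 0.10 (adjusted p 1.42e-04, edgeR), and so did ASNS, by 0.43 ± 0.07. The count was 5 without Samul-tang high-dose replicate 1 or Palmul-tang low-dose replicate 1, and between 7 and 12 without any other library of either formula, except 15 without Samul-tang low-dose replicate 2 and, for Palmul-tang, 17 without high-dose replicate 2 and 29 without low-dose replicate 2.

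Set against the average of Sagunja-tang and Samul-tang, 17 genes differed, 0.0962% of those tested, 5 higher (0.0283%) and 12 lower (0.0679%). ID3 fell beyond that average by -1.19 ± 0.13 (95% interval -1.43 to -0.94, adjusted p 5.30e-08, edgeR) and ID2 by -1.17 ± 0.14 (95% interval -1.45 to -0.89, adjusted p 1.31e-06). ATOH8 did so by -0.91 ± 0.17, DLX2, a homeobox factor, by -0.61 ± 0.10, and SAMD11 by -1.23 ± 0.22. Beyond the average on the higher side were TRIB3 at 0.50 ± 0.09 and FBXO32, a ubiquitin ligase subunit, at 0.41 ± 0.07 (adjusted p 0.00193, edgeR). FBXO32 had 212, 199 and 218 CPM at the high dose of Palmul-tang, against 112, 136 and 111 CPM at its low dose, and rose beyond each of the other 3 formulas, though the difference from Samul-tang lost its call in 9 of the 12 fits without 1 library, that from Sagunja-tang in 4 of 12, and that from the average without Palmul-tang low-dose replicate 3. The call of ATOH8 against the average was lost without replicate 3 of either Palmul-tang dose. HMOX1 differed from the average by 0.23 ± 0.11 (95% interval 0.01 to 0.45), GDF15 by 0.52 ± 0.17 (95% interval 0.19 to 0.85) and ATP2A3 by 0.58 ± 0.19 (95% interval 0.20 to 0.95), none of them called. These intervals, not adjusted over genes, lie wholly on the higher side. The missing calls thus do not show that these genes followed the average. The count of 17 was 6 without Palmul-tang low-dose replicate 3, 10 without its high-dose replicate 1 or 3, and 11 without its high-dose replicate 2 or Samul-tang low-dose replicate 1.

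**Figure D4:**
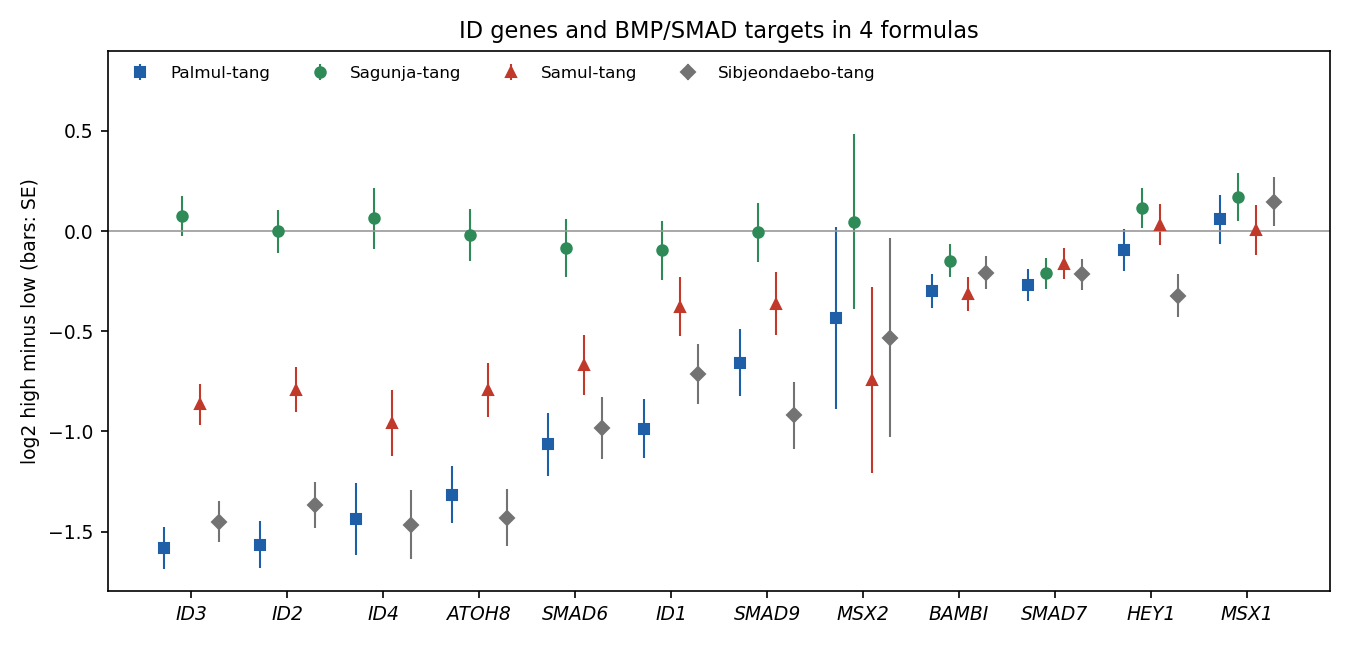
Log2 difference between the high and the low dose (vertical axis, bars are standard errors) of the 12 tested ID genes and BMP/SMAD1/5 targets in Palmul-tang, Sagunja-tang, Samul-tang and Sibjeondaebo-tang. ID3 stands at -1.58 in Palmul-tang, 0.08 in Sagunja-tang, -0.86 in Samul-tang and -1.45 in Sibjeondaebo-tang.

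Against Sibjeondaebo-tang, which adds 2 herbs, 187 genes differed, 1.06% of those tested, 145 higher (0.82%) and 42 lower (0.238%). The ID genes were not among them: ID3 differed by -0.13 ± 0.14 (95% interval -0.41 to 0.15) and ATOH8 by 0.11 ± 0.20 (95% interval -0.28 to 0.51). NRF2 targets were, since HMOX1 rose less under Palmul-tang by -1.26 ± 0.13 (adjusted p 2.11e-08, edgeR), NQO1 by -0.64 ± 0.09, FTH1 by -0.61 ± 0.11 and AKR1C1 by -0.63 ± 0.13. ALAS1, the first enzyme of haem synthesis, rose less by -0.61 ± 0.07. The higher side was led by genes that hardly moved with Palmul-tang and fell with Sibjeondaebo-tang, such as PNISR, a nuclear speckle protein, with -0.06 ± 0.07 in Palmul-tang and -0.89 ± 0.07 in Sibjeondaebo-tang, and CCNL2, a cyclin tied to splicing, with -0.07 ± 0.06 in Palmul-tang and -0.77 ± 0.06 in Sibjeondaebo-tang. The count was 61 without Sibjeondaebo-tang high-dose replicate 3, 341 without its high-dose replicate 2, and 91 without Palmul-tang low-dose replicate 2. Without any other library of either formula it was at most 118, except 138 without Sibjeondaebo-tang low-dose replicate 1. The rank correlation with transcript length differed between the doses of Sibjeondaebo-tang. It was -0.159, -0.147 and -0.234 at its high dose and 0.126, 0.120 and 0.178 at its low dose. In Palmul-tang it ran from -0.061 to -0.023 at the high dose and from -0.003 to 0.077 at the low dose. The part of this shift in the formula difference was not tested.

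Counted gene by gene, 275 genes called for Palmul-tang were called in the same direction for Sagunja-tang, 42.2% of the Palmul-tang calls and 41.2% of the 668 for Sagunja-tang, and 1 in the opposite one. Those 668 were 3.78% of all genes tested. Samul-tang shared 149, 22.9% of the Palmul-tang calls and 59.8% of its own 249, which were 1.41% of all genes tested. Sibjeondaebo-tang shared 495, 76.0% of the Palmul-tang calls and 13.2% of its own 3763, with 4 opposite, and those 3763 were 21.3% of all genes tested. With such unlike numbers of calls the 3 shares of the Palmul-tang calls are not comparable with each other.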

How the data were processed

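RNA of SW1783 cells was sequenced as 100-base read pairs after a directional mRNA library kit, per the labels' protocols. Reads were trimmed with Trim Galore 0.6.5, aligned to hg38 with STAR 2.7.3a and counted with RSEM 1.3.3, per the submitters' processing notes; FastQC 0.11.9 is also listed. The annotation release and the use of strand in counting are not given in the sources used here. The authors deposited estimated counts (RSEM expected counts) per gene, neither scaled by library size nor by gene length. Of 279 columns in the table, 60 belong to these samples and 219 were not used. Gene names matched for 56558 of 60675 gene IDs and GENCODE v29 (GRCh38) positions for 57055.

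Counts were rounded to whole numbers. edgeR 4.0.16 (R 4.3.3) fitted 1 mean per group over 57 libraries, the vehicle and 18 groups of 3, after filterByExpr and TMM scaling, leaving 17676 genes. The quasi-likelihood test gave p-values, adjusted over all genes. CPM values use the TMM-scaled library size (cell type markers and their sums, the raw total) and no gene length, so levels are not compared between genes. The test was tested on simulated data. Alternatives were other scalings (RLE, upper quartile), filters, DESeq2 1.42.0, fewer libraries, leaving out each replicate and a replicate block. The members, gene lists and tests were chosen with earlier results of these data known. Named genes are the 5 markers, all tested members of the ID/BMP and calcium lists, the 12 largest rises and falls at 5 CPM or more, up to 4 called members of each other list, and 5 genes per direction of the step and formula tests; genes of the NRF2 and stress lists beyond these were chosen after their values were seen. Motifs were searched in RefSeq promoters (GRCh38.p14). Replicate pairs of a dose differed beyond sampling noise (chi-square over genes). Some genes that the naming rule selects are not reported here.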

Additional observations from a re-analysis of the deposited data

Results flagged for a closer look

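These results were picked out because the high minus low difference of Palmul-tang differed from that of another formula by a test of the difference itself (edgeR, adjusted p below 0.05). Values are log2 differences of differences, Palmul-tang minus the other formula, and no explanation was weighed. Sagunja-tang and Samul-tang differ from Palmul-tang in sample code as well.

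Against Sagunja-tang 42 genes were picked out. Among those with the smallest adjusted p on the lower side were ID3 at -1.66, ID2 at -1.56, SAMD11 at -1.71 and ATOH8 at -1.29. On the higher side they were LIF at 0.71, ANGPTL4 at 1.12, IGFBP1 at 0.70, NDRG1 at 0.57 and F3, tissue factor, at 0.55. F3 itself gave 0.08 ± 0.07 in Palmul-tang and -0.47 ± 0.07 in Sagunja-tang.

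Against Samul-tang the 22 genes included, on the lower side, TNFRSF10D, a decoy receptor for TRAIL, at -0.46, DIO2, a thyroid hormone deiodinase, at -0.50, the non-coding RNA MIR100HG at -0.63 and ID3 at -0.72. On the higher side were TRIB3 at 0.71, ASNS at 0.43, CLMN at 0.75, FBXO32 at 0.41 and HS1BP3 at 0.43. Without 1 library the calls of CLMN and HS1BP3 were lost in 5 and 6 of 12 fits. DIO2 and MIR100HG were not called for Palmul-tang alone, at -0.19 ± 0.07 and -0.07 ± 0.08.

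Against Sibjeondaebo-tang the 187 genes included HMOX1 at -1.26, ALAS1 at -0.61, NQO1 at -0.64, the kinase MAP2K1 at -0.35 and FTH1 at -0.61 on the lower side. On the higher side were CCNL2 at 0.70, NBPF8 at 0.62, PNISR at 0.83, AHSA2P at 0.85 and GOLGA8B at 1.05. NBPF8 and GOLGA8B belong to multigene families and AHSA2P is a pseudogene, so reads may be shared with near-identical copies.

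Against the mean of Sagunja-tang and Samul-tang the 17 genes included ID3 at -1.19, ID2 at -1.17, DLX2 at -0.61 and LIMCH1, an actin-binding protein, at -0.42 on the lower side. On the higher side were FBXO32 at 0.41, TRIB3 at 0.50, SPSB1 at 0.32, FICD at 0.36 and RND3 at 0.43. Without 1 library the calls of FICD and RND3 were lost in 8 and 12 of 18 fits.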

How the results depend on the processing

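No called value changed direction under any alternative run; ORAI2 and GOLGA8B, not called for high minus low, changed sign near 0 in 1 each. RLE and upper quartile scaling, a stricter filter and the replicate block each left all 8 counts of called genes within 1.5 times. The replicate block gave 662 calls for high minus low; same-numbered libraries of the 2 doses correlated by -0.005 to 0.020 in their deviations, so the numbers were taken as names only. Among named genes it ended the calls of IGFBP5 for high minus low, COL8A1 for the difference of steps, ID1 against Sagunja-tang and FYB1 against Samul-tang. Without low-dose replicates 1 and 2 of Astragali Radix the 8 counts were 2169 for high minus low, 0 for medium minus low, 1663 for high minus medium, 202 for the difference of steps, 243, 328, 2796 and 95 against Sagunja-tang, Samul-tang, Sibjeondaebo-tang and the mean of the first pair. With only the extracts compared they were 2303, 0, 1848, 185, 252, 281, 2573 and 89 in that order, and the 6 high and low libraries alone gave 2423. At adjusted p below 0.01, 397 genes were called for high minus low. Without a low-count filter medium minus low gave 67, the difference of steps 104, and the 4 formula tests 90, 92, 387 and 56. DESeq2 gave 2 for medium minus low, 38 for the difference of steps, 48 against Samul-tang and 428 against Sibjeondaebo-tang. Leaving out 1 library gave 388 to 568 for high minus low, 0 to 2 for medium minus low, 236 to 332 for high minus medium, 4 to 18 for the difference of steps, 26 to 44 against Sagunja-tang, 5 to 29 against Samul-tang, 61 to 341 against Sibjeondaebo-tang and 6 to 18 against the mean. The cause of these shifts was not tested.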

Other observations

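Of 22 tested NF-kB and inflammatory genes 5 rose and 3 fell at the high dose of Palmul-tang. LIF had 50.8, 56.3 and 54.7 CPM at the high dose, against 35.5, 39 and 36 CPM at the low dose, IL1B, an inflammatory cytokine, had 8.44, 7.48 and 7.84 CPM at the high dose against 4.49, 6.1 and 5.4 CPM at the low dose, and ICAM1, an adhesion molecule, differed by 0.35 ± 0.08. CCL2, a chemokine for monocytes, averaged 16 CPM at the high dose and 23.6 CPM at the low dose, and BIRC3, an NF-kB target that curbs apoptosis, 9 CPM at the high dose and 12 CPM at the low dose, both called lower. Of 28 MAPK feedback and early genes 5 rose and 1 fell; the phosphatase DUSP6 gave 0.43 ± 0.06 and PHLDA1 0.29 ± 0.05. Without 1 library the NF-kB members called lower numbered 0 without high-dose replicate 1 or low-dose replicate 3 and 1 without low-dose replicate 1 or high-dose replicate 2 or 3, and those called higher 3 without low-dose replicate 3. The MAPK members called higher were 2 without low-dose replicate 1 and 3 without replicate 3 of either dose. CCL2 and BIRC3 were named after their values were seen.

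Matrix and contractile genes were lower where they were called. Of 25 collagen and matrix genes 3 fell, with THBS1, thrombospondin, at -0.43 ± 0.07, COL8A1 at -0.45 ± 0.04 and SPARC at -0.14 ± 0.04. Of 16 SRF and actin contractile genes 3 fell, TPM1, a tropomyosin, at -0.40 ± 0.06, ACTA2, smooth muscle actin, at -0.39 ± 0.06 and CALD1, caldesmon, at -0.26 ± 0.05. MMP1, a collagenase, rose to 71.7 ± 1.99 CPM at the high dose against 57.2 ± 4.41 CPM at the low dose. Of 29 hypoxia and glycolysis genes 3 rose, with VEGFA, a vascular growth factor, at 0.31 ± 0.06, the glucose transporter SLC2A3 at 0.34 ± 0.07 and NDRG1 at 0.42 ± 0.07, and 3 fell, among them PGK1, a glycolytic enzyme, at -0.19 ± 0.06. The falling members numbered 0 or 1 without any 1 of the 6 libraries, and 13 with the Palmul-tang libraries alone. The calls of SPARC and PGK1 were lost whenever any 1 of the 6 Palmul-tang libraries was left out.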
